A study of Mus musculus with 58 samples.

Results

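The genes of mouse chromosome 11 were followed by line and by clone in chromatin-associated RNA from interspecific female cells, to ask how much RNA each parental copy of the chromosome gave in each engineered line. A gene was taken when its row lay on chr11 and it had at least 5 allele-assigned fragments in every library, and the Hox B and Hist3h genes, imprinted genes, named chromatin-factor genes and an ETS transcription factor gene of the chromosome were left out. Of 1698 chr11 genes, 848 passed the fragment rule, 7 of those were left out by name, and 841 (49.5%) were members. The same fragment rule kept 9066 genes on the other autosomes, which served as the comparison throughout. Of the members, 35 had a lowest count of exactly 5 (Aoc2 and Arhgdia among them), and 37 chr11 genes missed the rule with a lowest count of 4 (Abcc3 and Abi3 among them).

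Cells that carry the usual 2 copies of an autosome make RNA from both, and most genes of an interspecific hybrid give similar amounts from each, apart from imprinted genes and genes with strain differences in cis. A gain or loss of a chromosome segment changes the RNA of that copy alone, and mouse embryonic stem (ES) cells in culture are known to acquire such changes. Chromosome 11 carries, among others, Trp53 (the p53 tumour suppressor), Top2a (a DNA topoisomerase), Brca1 (a DNA repair factor) and many genes of translation. RNA was measured here and DNA copy number was not, so every value below is a level of RNA. In bulk samples, fewer cells of a type and less RNA per cell cannot be told apart.

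The 58 libraries were of ES cells and of neural progenitor (NPC) cultures from female F1 cells with a 129S-type (Dom) and a Castaneus (Cast) genome, and all lines carried a doxycycline-inducible Xist on the Dom X chromosome. Each group held 2 libraries, apart from the SPOC ES groups, which held 3. The WT line is iXist-ChrX-Dom without further engineering. The SPOC line carries a mutated SPOC domain in SPEN, a repressor bound by Xist, and was sampled as clones C11, D9 and H1. The PCGF35 line carries FKBP12 degron tags on PCGF3 and PCGF5, subunits of Polycomb repressive complex 1, and was either left untreated or given 100 uM dTAG-13 from 12 h before Xist induction (per the study's methods the drug then stayed in the medium). The PCGF35_SPOC line adds the SPOC mutation (clones F10 and F6, both with and without dTAG-13). The DelPID line carries an Xist that lacks the Polycomb-recruiting region. The DelPID_SPOC line (clones A8 and G3) is named in the titles for the SPOC mutation as well, although the engineering label does not mention it. The study describes a clone G of this line as tetraploid. That clone is taken here to be G3. Shares and levels relative to the other autosomes do not show the ploidy of a clone. The part of ploidy in the differences between G3 and A8 or DelPID was not tested. ES cells were taken at day 0 without doxycycline and at day 1 with 1 ug/mL doxycycline, and NPC cultures at day 3 and day 6 with doxycycline. WT and DelPID are represented by NPC libraries only, and C11 by ES libraries only. Each engineered line or clone is a single clone, so genotype and clone cannot be told apart in a comparison between lines. The labels do not say that the replicates came from separate cultures, and the p-values below measure only the spread between these libraries.

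Libraries held 2.29 to 30.01 M fragments on genes (median 15.9), of which 44.2 to 49.6% were assigned to an allele, and the members held 75470 to 1142340 allelic fragments per library. The widest 95% Wilson interval of a library's pooled member share was 0.684 points, which covers counting error only. Xist fragments were at least 79.4% Dom after induction, and the median Dom share of 320 X-linked genes lay between 44.9 and 47.2% at day 0. The summed level of 5 pluripotency markers had a median of 1214 CPM (counts per M assigned to genes) in ES day 0 libraries (990 to 1815) and 586 CPM in NPC day 6 libraries (310 to 998). Nes, Vim, Sox1 and Pax6, the neural markers, summed to 24.3 to 103 CPM in ES day 0 and 25.8 to 394 CPM in NPC day 6 libraries, with Sox1 at 0 in every library and Pax6 at 10.5 CPM or less. The NPC label is that of the sample titles, and the neural sum at NPC day 6 was mostly Nes and Vim. The SPOC libraries at NPC day 6, at 45.6 (labelled D9) and 25.8 CPM (H1), lay within the ES day 0 range. The 7 markers of feeder fibroblasts, which the study removed by pre-plating, summed to 1.51 to 141 CPM at NPC day 6, with Lum and Postn near 0.

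The NPC libraries labelled D9 went against the ES libraries labelled D9. Over 56 genes of distal chromosome 1, from Nvl (GRCm38/mm10 chr1:181093422-195131570), Dom fragments made up 0.269 to 0.286% in the D9 ES libraries and 0.303 to 0.359% in the C11 ES libraries. The same stretch gave 52.6 to 54.0% Dom in the NPC libraries labelled D9 and 52.7 to 54.0% in all H1 libraries. The NPC libraries labelled D9 are named by that label below. They are pooled with the D9 ES libraries only in the fit of D9 against H1 over both cell types, where each cell type is also given alone. The totals of called members in SPOC against WT and in the interactions are also given for H1 alone. The SPOC counts by stretch, role list and chromosome, and the SPOC values of single genes, rest on both sets and are not.

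The balance of the alleles of chromosome 11 separated the lines. The Dom share, meaning Dom fragments as a percent of all allelic fragments pooled over the members, was 54.4 and 55.1% in WT NPC at day 3 and 55.2 and 53.5% at day 6. In the PCGF35 line it was 68.7 to 69.2% (median 68.9, n = 16), and in PCGF35_SPOC 68.2 to 69.0% (median 68.8, n = 16). In the DelPID line it was 35.8 and 36.5% at day 3 and 35.7 and 36.8% at day 6. The WT, PCGF35 and DelPID libraries therefore formed 3 groups that did not overlap, with the Dom copy ahead in the first and second and the Cast copy ahead in the third.

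Both DelPID_SPOC clones lay at the level of the DelPID line, already in ES cells. Clone A8 gave 35.1% Dom in ES day 0, 35.2% in ES day 1, 35.3% in NPC day 3 and 35.3% in NPC day 6. Clone G3 gave 35.3, 35.2, 35.9 and 35.9% in the same order. Xist had not been induced in the ES day 0 libraries, so the Cast excess was present with and without doxycycline. The same held for PCGF35, where ES and NPC libraries both lay within 68.7 to 69.2%.

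The SPOC clones did not share one value. Clone C11 gave 47.8 and 48.2% Dom in its ES libraries and clone H1 gave 47.2 and 47.2%, with 48.0 and 47.8% in the H1 NPC libraries. The ES libraries labelled D9 gave 54.5 and 54.7%, within the range of WT NPC. The NPC libraries labelled D9 gave 47.8 and 47.7%, within the range of C11 and H1. Over the other autosomes the gene median of the Dom share stayed between 50.8 and 53.1% in all 58 libraries (median 51.6). That median covers autosomes that were themselves unbalanced. The gene median of chromosome 12 was 34.6 to 38.5% Dom in every library, that of chromosome 8 was 33.7 to 36.8% in every library but those of G3 (median 50.7%), and that of chromosome 18 was 73.0 to 78.1% in DelPID, 69.1 to 71.0% in A8 and 68.4 to 69.1% in G3. A skewed balance was thus not particular to chromosome 11.

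**Figure D1:**
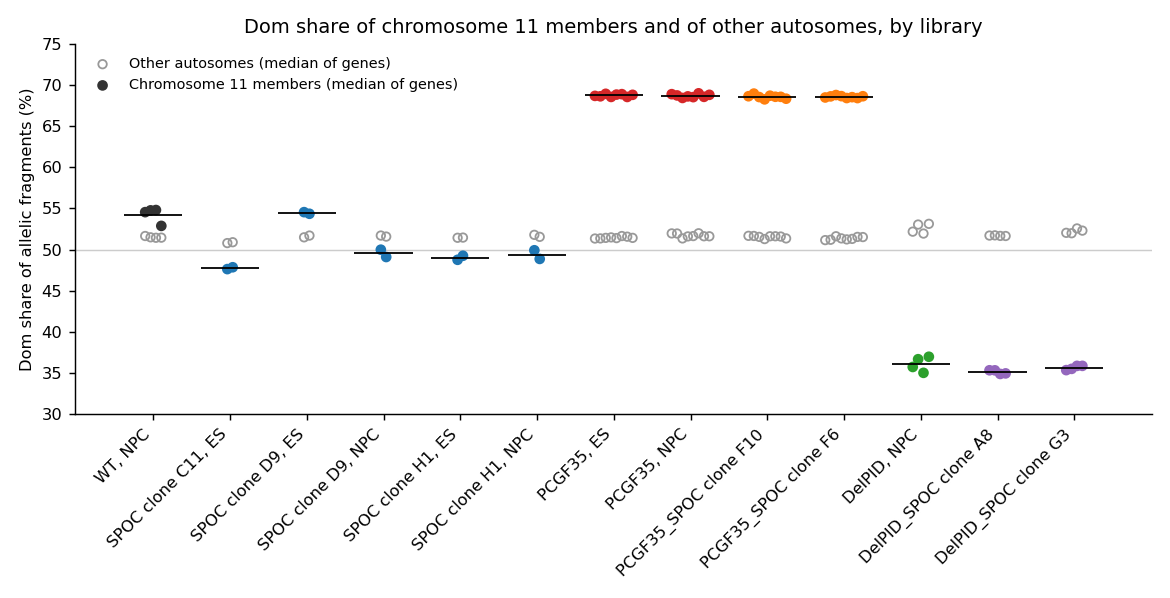
Median Dom share over genes (percent of allelic fragments, vertical axis from 30 to 75) in each library, by line, clone and cell type. Filled points are the 841 chromosome 11 members, open points are the genes of the other autosomes, and the line is the mean of each class. The members lay at 68.3 to 69.0% in PCGF35 and PCGF35_SPOC and at 34.9 to 37.0% in DelPID and DelPID_SPOC, while the other autosomes stayed between 50.8 and 53.1%.

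A share does not say which allele differs, so the fragments of each allele over the members were set against 100 allelic fragments of the other autosomes in the same library. WT NPC had 4.18 ± 0.13 Dom and 3.48 ± 0.0912 Cast fragments on this scale (SD, n = 4). PCGF35 NPC had 6.66 ± 0.164 Dom and 3.00 ± 0.0784 Cast fragments (SD, n = 8). DelPID NPC had 3.31 ± 0.217 Dom and 5.83 ± 0.287 Cast fragments (SD, n = 4). In PCGF35 the larger allele was thus Dom and in DelPID it was Cast, and in each case the range of the larger allele (6.35 to 6.88 and 5.40 to 6.00) lay above every other class without the same excess.

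The smaller allele differed less between lines. Its range was 2.87 to 3.13 for Cast in PCGF35 NPC, 3.00 to 3.46 for Dom in DelPID NPC, and 3.39 to 3.56 for Cast in WT NPC. In both engineered lines it was lower than the same allele of WT NPC, where Dom was at 4.08 to 4.36. The Dom range of DelPID NPC overlapped that of H1 NPC (3.416 to 3.421) and of the NPC libraries labelled D9 (3.39 to 3.45). A lower Dom level in DelPID was thus seen against WT and not against the SPOC NPC libraries. Relative to the other autosomes, the median over members was 0.781-fold for Dom in DelPID against WT. For Cast in untreated PCGF35 against WT it was 0.850-fold. The ratio of the larger to the smaller allele was 2.20 to 2.24 over the PCGF35 libraries, 1.72 to 1.80 in DelPID NPC and 1.15 to 1.23 in WT NPC. In ES cells PCGF35 had 6.65 ± 0.119 Dom and 3.01 ± 0.0464 Cast fragments (SD, n = 8), against 3.64 ± 0.0141 and 3.03 ± 0.0029 in the D9 ES libraries (SD, n = 2). The Cast level of PCGF35 ES cells was therefore within 0.1 of that of the D9 ES libraries, while the Dom level was higher in every library.

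Both alleles and unassigned fragments together gave the total level of the chromosome. Members held 8.42 to 8.74 fragments per 100 fragments of the other autosomes in WT NPC and 7.43 to 8.03 in the SPOC clones. The PCGF35 and PCGF35_SPOC libraries held 10.3 to 11.3, and the DelPID and DelPID_SPOC libraries 9.58 to 10.9. No library of these 4 lines overlapped WT or SPOC in total level.

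**Figure D2:**
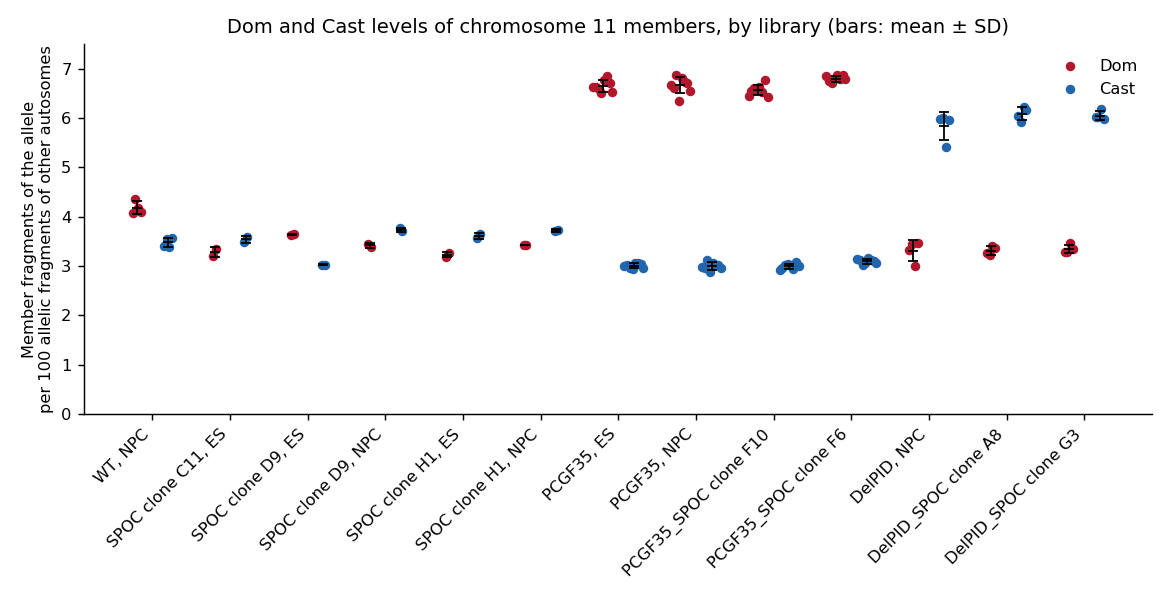
Dom (red) and Cast (blue) fragments of the 841 members per 100 allelic fragments of the other autosomes, by line, clone and cell type, on an axis from 0. Bars are means, error bars are SD and points are libraries. Dom stood at 6.35 to 6.88 in the PCGF35 line against 4.08 to 4.36 in WT NPC, and Cast at 5.40 to 6.00 in DelPID NPC against 3.39 to 3.56 in WT NPC.

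The imbalance in PCGF35 ran through nearly all members. Pooled over the 8 PCGF35 NPC libraries, 821 members were over 50% Dom and 20 under, with an interquartile range of 65.8 to 71.4% around a median of 68.6%. In DelPID NPC, 776 members were under 50% and 64 over, with a median of 36.7% and an interquartile range of 32.0 to 41.8%. In WT NPC, 622 were over 50% and 215 under, around a median of 54.4%. Members of low and high counts gave like medians: for 280 members of low, 280 of middle and 281 of high mean allelic count, the median Dom share was 68.4, 68.7 and 68.7% in PCGF35 NPC and 37.2, 36.4 and 36.5% in DelPID NPC.

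Few members stood outside. Of the 841, 812 were over 50% Dom in every PCGF35 and PCGF35_SPOC class and 771 were under 50% in every DelPID and DelPID_SPOC class, with 742 doing both. Alyref (an mRNA export factor), Mapt (the microtubule protein tau), Igfbp3 (a binding protein of insulin-like growth factors), Slc47a2 (an organic cation transporter), Ccl9, E230016K23Rik, Fat2, Gabrb2, Gm12298, Lyrm7, Pttg1 and Sfi1 were at 50% Dom or less in every PCGF35 and PCGF35_SPOC class. All 12 were also under 50% in WT and in every SPOC class. In the other direction, 25 members were at 50% Dom or more in every DelPID and DelPID_SPOC class, among them Hnrnpab, Psme4, Timp2 and Ubb (these genes are listed after their values were seen).

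The share also changed along the chromosome in some lines. The places of change described next were read from these values, so the counts by stretch are a description and carry no test. The distal stretch began between Med1 (chr11:98152154-98193293, a Mediator subunit) and Cdk12 (starting at 98203304, a kinase of transcription elongation) and ran to the last member. It held 244 members. A single step at that place, taken over 675 members relative to the D9 ES libraries, split H1 ES into a median of 52.1% before and 35.1% after it, with 75.8% of the variance over members between the sides. The NPC libraries labelled D9 went from 52.5 to 36.2% (66.4% of the variance) and H1 NPC from 52.4 to 35.9% (68.9%).

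WT NPC had a smaller step at the same place, from 55.9 to 50.0% (27.9% of the variance). In the 4 WT libraries the pooled distal share was 46.8, 50.8, 49.0 and 49.6%, against 57.3, 56.6, 57.3 and 54.9% over the rest. All 4 WT libraries were lower distally, by 5.3 to 10.5 points. Neither C11 (46.6 to 47.3% distal, 48.3 to 48.6% rest) nor the D9 ES libraries (53.9 to 54.0% distal, 54.7 to 54.9% rest) showed a gap of that size. The PCGF35 line was at 67.8 to 68.6% distally and 68.9 to 69.6% over the rest.

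The distal difference of H1 was in the Cast allele. Relative to the D9 ES libraries and to the other autosomes, distal members of H1 ES stood at 0.907-fold for Dom, 2.05-fold for Cast and 1.44-fold in total, and the rest of the chromosome at 0.878-, 0.948- and 0.927-fold. The NPC libraries labelled D9 stood at 0.981-fold for Dom and 2.14-fold for Cast distally against the same D9 ES libraries. Against C11, distal members of H1 ES were at 0.998-fold for Dom and 1.70-fold for Cast. Cdk12, the first member of the stretch, was 49.6 and 50.2% Dom in the D9 ES libraries, 43.4 and 42.6% in C11, 14.8 to 17.95% in H1, 15.2 and 16.1% in the NPC libraries labelled D9, and 26.9, 33.6, 28.8 and 31.5% in WT. Med1, the last member before it, was 54.5 to 59.1% in WT, 52.9 to 55.0% in H1 and 53.2 and 55.0% in the NPC libraries labelled D9. These neighbours differed by over 20 points in every library of H1 and of WT.

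Cdk12 also shows an excess by allele, one wider than that of the stretch. In WT its share lay below the pooled distal share of 46.8 to 50.8%. Its Dom level, in Dom fragments per M allelic fragments of the other autosomes, was 140 to 144 in the D9 ES libraries, 115 to 134 in H1 ES, 139 to 140 in the NPC libraries labelled D9, and 99.96 to 153 in WT NPC. Its Cast level on the same scale was 139 to 146, 581 to 613, 727 to 780 and 217 to 415 in the same order. The Dom levels of these classes lay near each other, while the Cast level of H1 ES and of the NPC libraries labelled D9 lay above that of the D9 ES libraries, with WT in between. The gap between H1 ES and the D9 ES libraries exceeded the 2.05-fold of the distal members as a whole.

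Set in 10 Mb bins of the gene start, the median Dom share varied least in the PCGF35 and PCGF35_SPOC classes, by 3.31 to 4.39 points between the lowest and the highest bin. The range was 6.23 points in C11, 7.59 in the D9 ES libraries and 10.9 in WT. It was 10.99 points in DelPID, 11.4 in A8 and 11.6 in G3, with the lowest bin at 60 to 70 Mb in all 3. It was 20.6 points in H1 ES, 20.8 in H1 NPC and 20.96 in the NPC libraries labelled D9, with the lowest bin beyond 110 Mb.

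**Figure D3:**
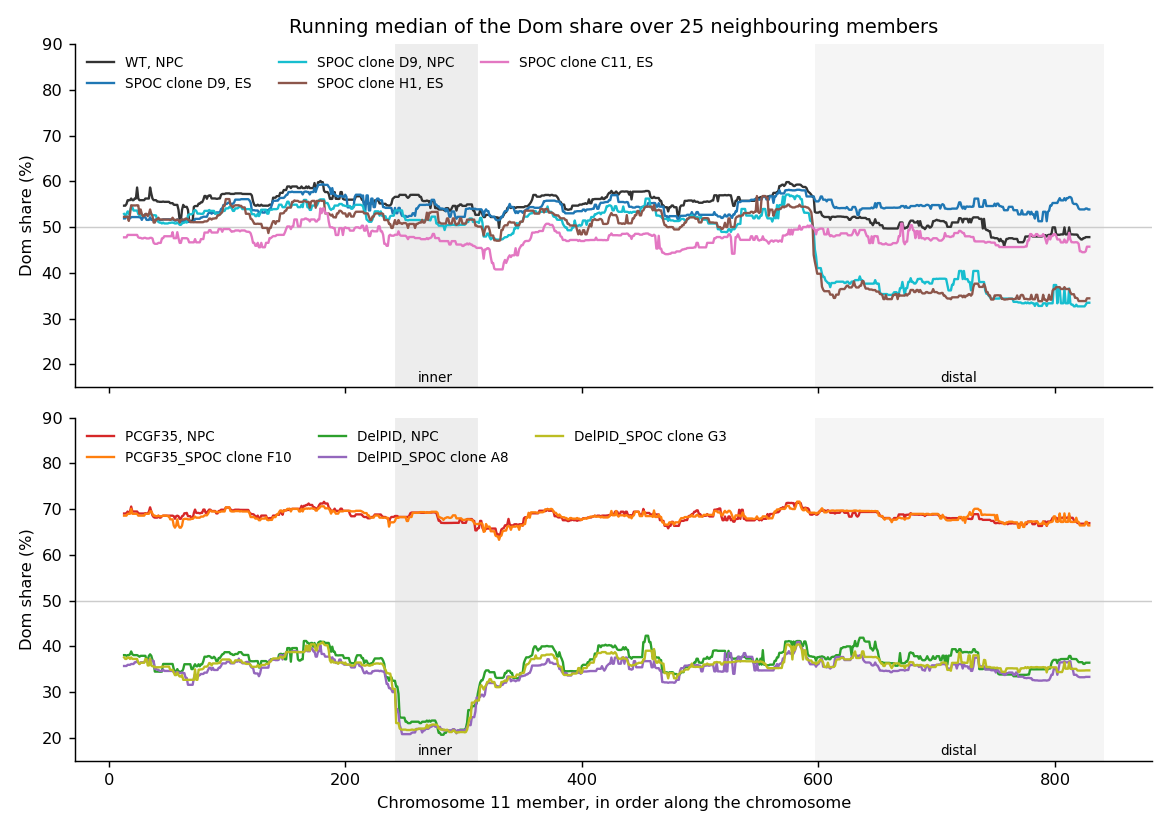
Running median of the Dom share (percent) over 25 neighbouring members, in order along chromosome 11, for WT NPC and the SPOC clones (top) and for the PCGF35, PCGF35_SPOC, DelPID and DelPID_SPOC lines (bottom). Grey bands mark the inner and the distal stretch. H1 and the NPC libraries labelled D9 dropped to about 35% in the distal band, and DelPID, A8 and G3 to about 22% in the inner band, while PCGF35 kept between 64.1 and 71.6%.

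A second stretch set the DelPID lines apart. From Zfp692 (a zinc finger gene starting at chr11:58307068) to Hs3st3b1 (a heparan sulfate sulfotransferase gene at chr11:63884692-63922284), 69 members were lower still in Dom share. The pooled share inside was 21.1 to 22.1% in DelPID, 21.2 to 22.2% in A8 and 21.97 to 22.4% in G3, against 37.0 to 38.2, 36.3 to 36.7 and 36.4 to 37.1% over the rest. In WT, SPOC and PCGF35 libraries the inner stretch lay within a few points of the rest, with 50.6 to 51.3% in H1 and 67.0 to 68.8% in PCGF35. The distal stretch of DelPID was at 35.8 to 37.1%.

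In the inner stretch the Cast allele was the one in excess, in DelPID and in both clones derived from it. Against the D9 ES libraries, inner members of A8 were at 3.91-fold for Cast, 0.926-fold for Dom and 2.33-fold in total, and those of G3 at 3.91-, 0.963- and 2.398-fold. The rest of the chromosome stood at 1.88-fold for Cast in both clones. DelPID NPC against WT NPC gave 3.23-fold Cast inside and 1.75-fold over the rest, with Dom lower at 0.749- and 0.818-fold. Against H1 NPC, DelPID NPC gave 3.73-fold Cast inside and 1.87-fold over the rest, with Dom at 1.003- and 0.974-fold. Top3a, a DNA topoisomerase gene inside the stretch, was 53.4, 52.6, 55.9 and 55.2% Dom in WT and 21.6, 19.1, 16.8 and 22.3% in DelPID. Its level was 49.9 to 56.4 fragments per M fragments of the other autosomes in WT and 97.4 to 138 in DelPID, so the groups did not overlap in share or in level. Per allele, its Cast level was 26.6 to 29.6 in WT and 81.01 to 128 in DelPID per M allelic fragments of the other autosomes, and its Dom level 32.7 to 33.9 and 22.3 to 36.8, so only the Cast levels stood apart.

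**Figure D4:**
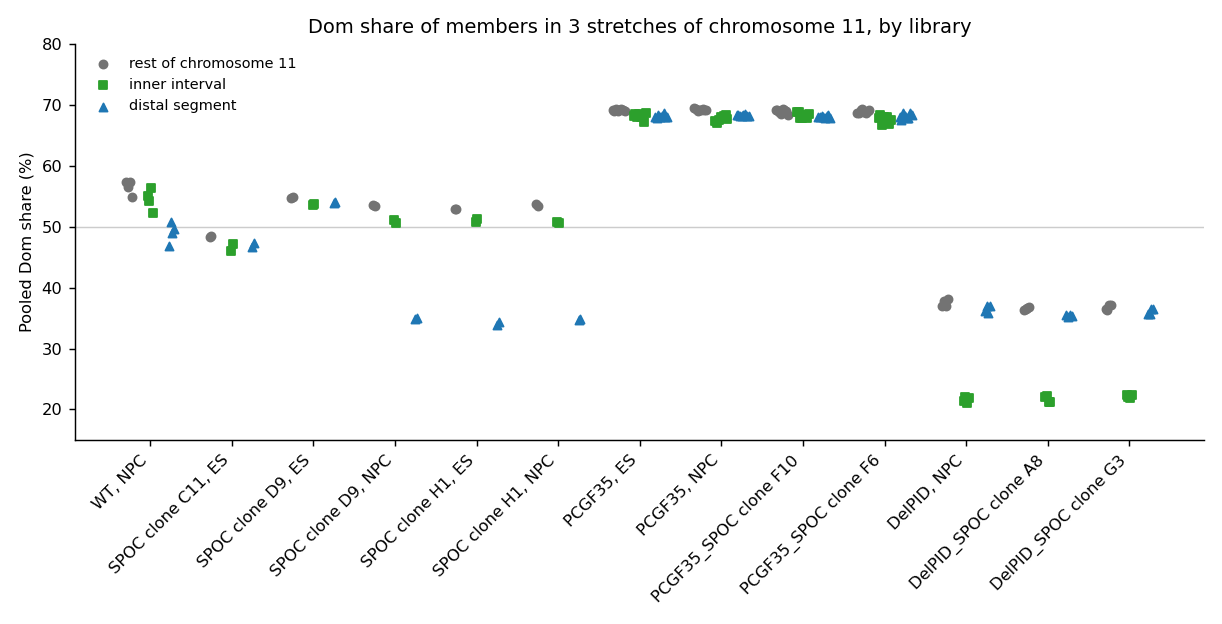
Pooled Dom share (percent, axis from 15 to 80) of the inner 69 members, the distal 244 members and the other 528 members in each library, by line and clone. DelPID, A8 and G3 libraries have the inner members at 21.1 to 22.4%, and H1 and the NPC libraries labelled D9 have the distal members at 33.9 to 35.0%, in each case below the other members of the same library.

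Tests gene by gene were run on Dom against Cast counts in all libraries at once, and separately on total counts, with edgeR's quasi-likelihood test and Benjamini-Hochberg adjustment over every gene of the genome tested (10236 for the allele balance, 16227 for the total level). All adjusted p-values below are from these fits and a gene was called under 0.05. The allele change is a log2 change of the Dom to Cast ratio. SPOC, untreated PCGF35 and DelPID were each set against the same 4 WT NPC libraries, so these 3 comparisons share their controls.

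SPOC was set against WT in NPC at day 3 and day 6, a comparison in which the mutation and the clone cannot be told apart. The pooled Dom share was lower in SPOC by 6.72 points (replicate SD 0.632), without overlap on either day. Per the study, WT was differentiated in parallel with clones D9 and H1. The labels do not tie a WT replicate to a clone, so no paired fit was made. The allele test called 187 members, 186 lower and 1 higher, which is 22.2% of members against 4.45% of all genes tested (2.18% for lower calls) and 1.04% of genes on the other autosomes. Of the called members, 145 lay in the distal stretch, 2 in the inner stretch and 40 elsewhere, where the median log2 changes were -0.81, -0.24 and -0.18. With the H1 libraries as the only SPOC libraries, the share was lower by 6.67 points and 98 members were called, and 117 or 123 without WT day 3 replicate 2 or WT day 6 replicate 1. H1 and the NPC libraries labelled D9 alone represent SPOC here, both with the distal excess of Cast. By allele, the median over members of SPOC against WT was 0.784-fold for Dom and 0.983-fold for Cast, relative to the other autosomes. WT NPC over H1 NPC stood distally at 1.27-fold for Dom and 0.698-fold for Cast. In the inner stretch these were 1.34- and 1.15-fold, and over the rest 1.19- and 1.07-fold. Dom was thus higher in WT in all 3 stretches.

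Among members named by size of change, Rdm1, a gene of the RAD52 family, was 60.5, 68.6, 64.8 and 72.2% Dom in WT and 39.6, 47.4, 37.9 and 51.0% in SPOC. Its allele ratio fell by 1.33 ± 0.23 on the log2 scale (SE, edgeR adjusted p = 1.20e-04). Cdk12 fell by 1.21 ± 0.29 (edgeR adjusted p = 6.95e-03), and Tex19.1, a germ cell gene, by 1.19 ± 0.30 (edgeR adjusted p = 1.19e-02). Sgcd, a sarcoglycan of the muscle membrane, was the single member called higher, at 48.2, 40.4, 44.4 and 44.0% in WT and 58.7, 46.4, 61.7 and 58.1% in SPOC (0.71 ± 0.18, edgeR adjusted p = 0.012).

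The total level gave fewer calls, and the number depended on single libraries. Here 40 members were called, 36 lower and 4 higher (1.75% of all genes tested, 0.641% for lower calls). The count was 3 or 7 without replicate 2 of WT at day 3 or day 6, 12 or 9 without replicate 1 of SPOC at day 3 or day 6, and 17 or 12 without replicate 2 of SPOC at day 3 or day 6. It was 5 with H1 alone, 80 with DESeq2 and 83 in a fit of these groups alone. The 4 called higher were Cdk12, Ccdc43, Gjc1 (a connexin) and Tlk2 (a chromatin assembly kinase), which all lay in the distal stretch, and no distal member was called lower. Gjc1 was at 139 to 210 fragments per M in WT and 254 to 276 in SPOC (log2 0.64 ± 0.12, edgeR adjusted p = 4.42e-03). Rai1, a chromatin-associated regulator in the inner stretch, was at 153 to 208 in WT and 90.3 to 106 in SPOC (log2 -0.87 ± 0.19, edgeR adjusted p = 1.32e-02), and Itga3, an integrin, fell by 1.84 ± 0.48 on the log2 scale (edgeR adjusted p = 3.66e-02). The neural marker sum was 135 and 108 CPM in WT at day 6 and 45.6 and 25.8 in SPOC, and its part in these levels was not tested.

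Untreated PCGF35 against WT NPC gave the opposite direction for the whole chromosome. The pooled Dom share was higher by 14.4 points (replicate SD 0.636), without overlap on either day. In the allele test 688 members were called higher and 0 lower, or 81.8% of members (8.12% of all genes tested, 7.37% for higher calls, and 1.39% on the other autosomes). The median log2 change was 0.87 over the members, with 838 of 841 estimated above 0, and 0.03 over all genes. The distal stretch, where WT itself was lower, had a median of 1.13, against 0.79 and 0.80 for the inner stretch and the rest.

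Slc47a2 had the largest called change, from 7.46, 6.34, 3.73 and 2.51% Dom in WT to 27.1, 24.1, 13.9 and 22.5% in PCGF35 (log2 2.44 ± 0.31, edgeR adjusted p = 1.92e-07). It was thus a mainly Cast gene in both lines. Cdk12 rose by 2.23 ± 0.30 (edgeR adjusted p = 4.20e-07), and Mfsd11, a transporter-like gene, went from 38.5, 38.5, 39.2 and 36.9% to 68.9, 65.7, 67.4 and 60.0% (log2 1.64 ± 0.24, edgeR adjusted p = 2.34e-06). In total level 127 members were called higher and 2 lower (3.12% of all genes tested, 1.4% for higher calls), with 208 called in a fit of these groups alone. The 2 called lower were Slc47a2 (log2 -0.67 ± 0.18, edgeR adjusted p = 3.36e-02) and Ttll6, and the median shift of the members over the other autosomes was 0.30 on the log2 scale. Med1, a called member, rose by 0.60 in total level (edgeR adjusted p = 5.6e-06).

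Of the members named for the largest rise in total level, Rbfox3, a neuronal splicing regulator, was at 7.29 to 11.5 fragments per M in WT and 21.2 to 25.9 in PCGF35 (log2 1.23 ± 0.35, edgeR adjusted p = 4.42e-02). Mrc2 was at 9.25 to 15.97 in WT and 25.5 to 33.6 in PCGF35 (edgeR adjusted p = 3.58e-02), and Acyp2, an acylphosphatase, at 59.9 to 94.1 and 103 to 290 (edgeR adjusted p = 4.15e-02). Lack of overlap within a day was part of the rule that named these 3, so it is no further result.

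DelPID against WT NPC moved the balance towards Cast. The pooled Dom share was lower by 18.4 points (replicate SD 0.785), without overlap on either day. The allele test called 676 members lower and 3 higher, or 80.7% of members (16.6% of all genes tested, 7.57% for lower calls, and 8.38% on the other autosomes). The median log2 change was -2.16 in the inner stretch, -0.74 in the distal stretch and -1.09 elsewhere. Called members numbered 68 of 69, 151 of 244 and 460 of 528.

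The largest changes lay in the inner stretch. Zfp39, a zinc finger gene, was 42.1, 45.3, 41.7 and 37.9% Dom in WT and 10.4, 12.4, 16.7 and 9.02% in DelPID (log2 -2.58 ± 0.18, edgeR adjusted p = 1.32e-14). Zfp672, another zinc finger gene, was 51.3, 47.9, 41.5 and 48.2% and 7.33, 13.7, 17.6 and 13.8% (log2 -2.57 ± 0.16, edgeR adjusted p = 9.40e-16), and Sh3bp5l fell by 2.54 ± 0.23 (edgeR adjusted p = 1.15e-11). The 3 called higher were Timp2 (an inhibitor of matrix metalloproteinases), Ptrf (a caveolar coat protein) and Pisd-ps1, a pseudogene whose reads may be shared with its parent gene and whose value is uncertain. Pisd-ps1 was 56.1, 55.1, 54.0 and 53.3% Dom in WT and 66.5, 62.8, 75.8 and 60.3% in DelPID.

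In total level DelPID had 162 members called higher and 7 lower (7.56% of all genes tested, 4.65% for higher calls), 54 of the called members in the inner stretch, where the median log2 change was 0.85 against 0.02 distally and 0.24 elsewhere. A fit of these groups alone called 80 members. Slc47a2 rose by 1.86 ± 0.18 (edgeR adjusted p = 1.61e-08). Pigl, an enzyme of GPI anchor synthesis, was at 37.7 to 57.4 fragments per M in WT and 116 to 150 in DelPID (log2 1.60 ± 0.13, edgeR adjusted p = 3.82e-10). Rhbdf1, Slc16a3 (a monocarboxylate transporter) and Adamts2 (a procollagen protease) fell by 1.302, 0.92 and 0.81. The feeder marker sum was 10.99 to 35.3 CPM in DelPID and 4.52 to 22.4 in WT, and its part in these levels was not tested.

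Grouped by role, the called members of each list lay in 1 direction in each of the 3 comparisons with WT. Of 93 genes listed for 7 roles, 84 were members, and 45.2% of these lay in the distal stretch, beside 29.0% of all members. In PCGF35 against WT the allele test called higher 9 of 9 translation genes, 6 of 6 proteasome genes, 15 of 15 DNA repair and topoisomerase genes, 17 of 18 chromatin and transcription genes, 11 of 12 RNA-binding genes, 13 of 14 signalling genes and 10 of 10 membrane and trafficking genes, with none lower. These were 96.4% of the listed members, beside 81.8% of all members. The medians of these lists ran from 0.84 to 1.10, beside 0.87 over all members. In DelPID the same lists had 9, 4, 14, 15, 12, 11 and 8 members called lower and none higher, or 86.9% of the listed members beside 80.7% of all members, with medians from -1.12 to -0.70, beside -1.04 over all members. In SPOC 4, 2, 6, 9, 6, 6 and 4 were called lower and none higher, or 44.0% of the listed members, beside 22.2% of all members and 4.45% of all genes tested. The list medians in SPOC ran from -0.64 to -0.21, beside -0.29 over all members.

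Single genes of these lists show the pattern. Top2a was 46.6, 51.2, 49.2 and 49.9% Dom in WT, 34.2, 34.1, 36.0 and 36.9% in SPOC, 67.8, 68.4, 67.6 and 68.7% in PCGF35 and 34.5, 36.7, 37.9 and 35.4% in DelPID. SPOC and DelPID both lay below every WT library for this distal gene. Rpl19, a protein of the large ribosomal subunit, was 46.5, 45.1, 45.7 and 43.1% in WT, 60.2, 59.4, 59.7 and 59.6% in PCGF35 and 23.4, 25.4, 18.8 and 23.9% in DelPID. Its allele change in SPOC was -0.11 and was not called (edgeR adjusted p = 0.77).

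Trp53 was 49.4, 49.2, 42.7 and 44.3% Dom in WT, 63.1, 61.3, 61.9 and 54.5% in PCGF35 and 25.8, 29.2, 35.4 and 30.7% in DelPID. The groups did not overlap, with log2 changes of 0.82 ± 0.12 in PCGF35 (edgeR adjusted p = 3.3e-06) and -1.03 ± 0.13 in DelPID (edgeR adjusted p = 2.7e-08), and 0.11 ± 0.13 in SPOC, which was not called (edgeR adjusted p = 0.87). Brca1 was 47.7, 53.8, 53.4 and 52.2% in WT and 36.0, 39.9, 35.8 and 36.4% in SPOC, a fall of 0.87 ± 0.20 (edgeR adjusted p = 0.0031). Actg1, gamma actin, differed in the other way between SPOC and DelPID, at 33.9, 28.9, 30.4 and 28.3% and 52.2, 48.2, 48.1 and 43.2%, with 44.2 to 51.9% in WT. Its allele change was -1.10 ± 0.17 in SPOC (edgeR adjusted p = 1.6e-05) and -0.10 in DelPID (edgeR adjusted p = 0.83).

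Genes of the other lists kept these orders with their own offsets. Cltc, the clathrin heavy chain, was 53.2, 52.7, 53.5 and 53.4% Dom in WT, 48.2, 48.8, 49.8 and 48.3% in SPOC, 66.0, 66.3, 66.7 and 68.9% in PCGF35 and 32.4, 34.8, 30.5 and 34.8% in DelPID. The 4 lines did not overlap for this gene, which lies outside both stretches. Ddx5, an RNA helicase in the distal stretch, was 45.5, 49.6, 44.8 and 45.9% in WT, 31.8, 33.3, 32.3 and 34.0% in SPOC, 66.4, 66.6, 63.6 and 64.6% in PCGF35 and 30.7, 32.9, 31.5 and 32.1% in DelPID.

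Stat3, the signal transducer of the LIF response in ES cells, was 51.5, 50.3, 50.3 and 50.9% in WT and 40.8, 40.7, 40.1 and 38.3% in SPOC, a log2 change of -0.63 that was not called (edgeR adjusted p = 0.061). In PCGF35 Stat3 was 72.1, 73.3, 74.5 and 70.2% (1.37 ± 0.20, edgeR adjusted p = 1.5e-06). Srsf1, a splicing factor, was 45.6, 52.8, 49.1 and 47.9% in WT and 34.2, 31.0, 31.0 and 30.9% in DelPID. Its level was 252 to 391 fragments per M in WT and 494 to 633 in DelPID (log2 0.90, edgeR adjusted p = 1.6e-05).

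In total level fewer members of these lists were called. In PCGF35 these were 0 translation genes, 2 proteasome genes, 3 DNA repair genes, 4 chromatin genes, 1 RNA-binding gene, 1 signalling gene and 4 membrane genes, all higher, which was 17.9% of the listed members beside 15.3% of all members and 3.12% of all genes tested. In DelPID the numbers called higher were 2, 1, 6, 5, 2, 1 and 2, or 22.6% beside 20.1% of all members and 7.56% of all genes tested. Top3a rose by 0.51 in PCGF35 (edgeR adjusted p = 0.0026) and by 1.12 in DelPID (edgeR adjusted p = 1.7e-09), and Rad50, a DNA double-strand break repair factor, by 0.51 (edgeR adjusted p = 0.0057) and 0.76 (edgeR adjusted p = 1.7e-05). In SPOC the single called DNA repair gene was Cdk12, which rose by 0.98 ± 0.26 (edgeR adjusted p = 3.74e-02), and 1 signalling gene was called lower.

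Chromosome 11 stood apart from other autosomes in these 3 comparisons. By median difference of the Dom share over genes it ranked first of 19 autosomes in SPOC against WT (-4.79 points, next chromosome 15 at 1.41) and in PCGF35 against WT (14.4 points, next chromosome 16 at -0.83). In DelPID against WT it was second (-18.2 points) to chromosome 18 (22.2 points), with chromosome 12 next at 2.22. By the share of genes called in the allele test it was first with 22.2% in SPOC and 81.8% in PCGF35, where the next was chromosome 6 at 2.79 and 2.59%, and second in DelPID, where chromosome 18 had 93.5% and the next was chromosome 1 at 7.39%.

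**Figure D5:**
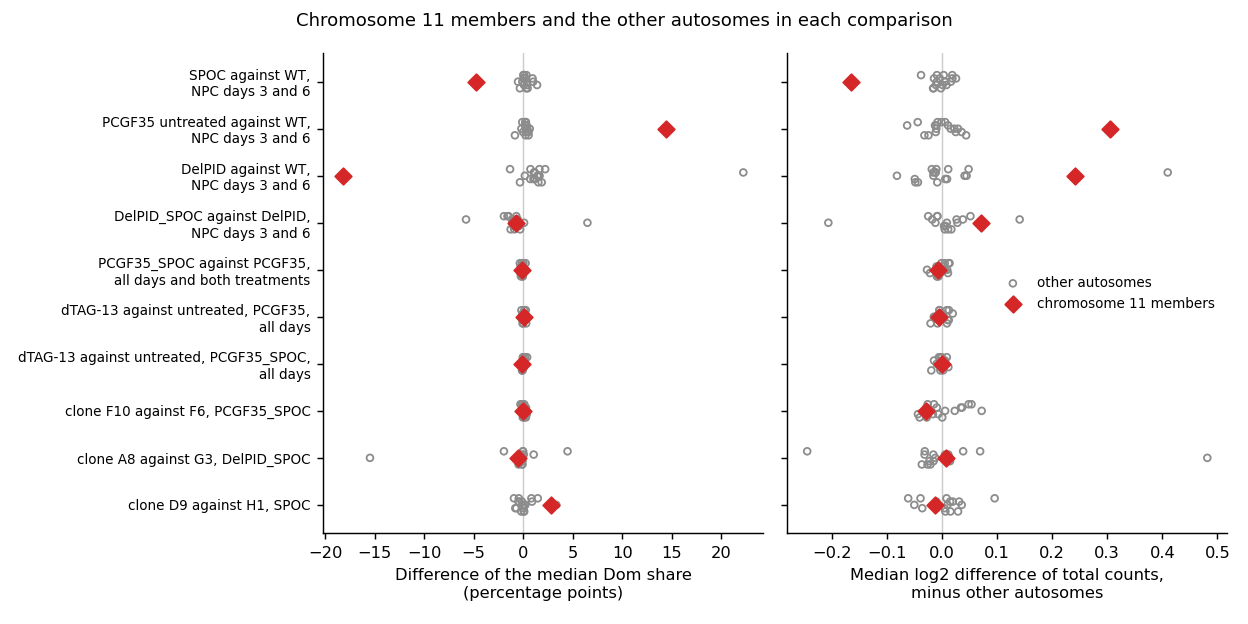
Each autosome in the 10 comparisons between lines, treatments and clones. The left panel plots the median difference of the Dom share over genes in points, and the right panel the median log2 difference of the total level minus that of the other autosomes; the diamond is chromosome 11 (members) and circles are the other autosomes. The diamond lies at -4.79, 14.4 and -18.2 points in the comparisons of SPOC, PCGF35 and DelPID with WT, and within 1 point of 0 in the comparisons of treatment.

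Adding the SPOC mutation to PCGF35 or DelPID went with small differences. DelPID_SPOC minus DelPID, in NPC, was -0.582 points (replicate SD 0.541), and the groups overlapped on both days. Per the study's methods the parent was differentiated alongside a clone in each experiment, but the labels do not tie a DelPID replicate to a clone, so no paired fit was made. The allele test called 2 members higher and 5 lower (5.11% of all genes tested), and 2 in all without replicate 2 of DelPID at day 3 or at day 6, 1 in a fit of these groups alone and 19 with limma. Dgke (a diacylglycerol kinase, 0.34 ± 0.10, edgeR adjusted p = 4.06e-02) and Nf2 (the tumour suppressor merlin, 0.28 ± 0.07, edgeR adjusted p = 1.86e-02) were higher. Mrc2 (a collagen receptor, -1.27 ± 0.22, edgeR adjusted p = 1.05e-04), Slit3 (an axon guidance ligand), Meis1 (a homeobox factor), Efemp1 and 9530068E07Rik were lower. In total level 10 were called higher and 13 lower (2.6%), among them Smcr8, an autophagy regulator, at 0.71 ± 0.12 (edgeR adjusted p = 9.08e-04). That count was 7 or 6 without replicate 1 of DelPID at day 3 or day 6, 63 without replicate 2 of DelPID at day 6, 7 without A8 at day 6, and 12 without G3 at day 3 or day 6, with 0 in a fit of these groups alone.

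PCGF35_SPOC minus PCGF35, over 16 against 16 libraries, was -0.197 points (replicate SD 0.244) and 0.054 points after subtraction of the other autosomes, and 2 of 8 sets matched for day and treatment did not overlap. The allele test called 1 member higher, the sulfotransferase gene Hs3st3a1, and 9 lower (3.97% of all genes tested), among them Pecam1, an endothelial adhesion protein, at -0.36 ± 0.10 (edgeR adjusted p = 2.56e-02). In total level 72 were higher and 69 lower (17.0% of all genes tested), a share of members near that of all genes.

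Treatment with dTAG-13 went with a mean difference in Dom share smaller than the spread between the libraries of a group. Treated minus untreated PCGF35 libraries differed by 0.027 points (replicate SD 0.101, -0.101 to 0.209 over the 4 days, with no overlap on 2 of them). PCGF35_SPOC libraries differed by -0.002 points (-0.096 to 0.088 over the 4 days, with overlap on all 4). The SD there, 0.33, is between clones F10 and F6 and so does not measure the spread of a treatment difference within a clone. Treated and untreated libraries of the same number deviated together, so counts with the replicate as a block stand beside the others. In PCGF35 the allele test called 1 member, Ppp1r9b (spinophilin, a scaffold of protein phosphatase 1), lower by 1.10 ± 0.25 (edgeR adjusted p = 8.11e-03, 1.45% of all genes tested), and 0 with the replicate as a block. In PCGF35_SPOC it called 0 members (0.625% of all genes tested), where 15 had an unadjusted p under 0.05, and 0 with the block.

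In total level the edgeR test called 0 members for dTAG in PCGF35 (0.0% of all genes tested), where 27 had an unadjusted p under 0.05 and DESeq2 called 1, and 0 in PCGF35_SPOC (0.0%), where 6 had an unadjusted p under 0.05 and DESeq2 called 0. With the replicate block it called 8 members in PCGF35 (1.2% of all genes tested) and 8 in PCGF35_SPOC (1.15%). In PCGF35, 6 of these were higher with dTAG (Urgcp, Mapt, Calcoco2, Tns3, Gm53 and Aatf) and 2 lower (Bahcc1 and Ikzf1). In PCGF35_SPOC, Urgcp was higher and 7 were lower (Adamts2, Bahcc1, Trim7, Pitpnc1, Zfp750, Arhgap23 and Ccng1). Urgcp and Bahcc1 were called in both lines and in the same direction, Urgcp with log2 changes of 0.37 and 0.26 and Bahcc1 with -1.20 and -0.65 (genes named after their values were seen).

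The sister clones of PCGF35_SPOC and of DelPID_SPOC had like shares. F10 minus F6 was -0.009 points (SD of the differences 0.498, -0.752 to 0.471 over 8 matched sets). A8 minus G3 was -0.348 points (SD of the differences 0.233, -0.544 to -0.079 over 4 matched sets). Each clone had a single library per set, so these SDs are a spread over sets and not between replicates. After subtraction of the other autosomes the differences were -0.513 and 0.520 points, so the direction of the second turned. Single members did differ between them. F10 against F6 had 22 members called higher and 23 lower by allele (6.59% of all genes tested) and 134 higher and 198 lower by total level (37.0%). A8 against G3 had 6 higher and 13 lower by allele (12.9%) and 24 and 45 by total level (15.1%). Members were called at a share near or below that of all genes in these 4 counts.

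Slit3 was higher in Dom share in F10 than in F6 (0.56 ± 0.06, edgeR adjusted p = 2.86e-09) and in A8 than in G3 (0.80 ± 0.07, edgeR adjusted p = 2.16e-11). Hs3st3b1, the last member of the inner stretch, was 15.98 to 28.4% Dom in A8 and 30.2 to 51.8% in G3 (log2 -0.96 ± 0.23, edgeR adjusted p = 2.22e-03), without overlap. In G3 the best place for the end of the inner stretch lay earlier, at Tvp23b, than in A8 and DelPID. Coil, the Cajal body protein coilin, was higher in A8 (0.70 ± 0.17, edgeR adjusted p = 2.27e-03).

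By total level, Igfbp3 was at 21.5 to 53.8 fragments per M in F10 (median 45.7) and 9.87 to 15.6 in F6 (median 11.4), without overlap (log2 1.75 ± 0.22, edgeR adjusted p = 2.11e-07). Mapt was at 24.2 to 50.6 in F10 and 54.4 to 78.5 in F6 (log2 -0.87 ± 0.14, edgeR adjusted p = 1.84e-05). Ddc, the aromatic amino acid decarboxylase, was at 26.2 to 71.6 in A8 and 87.1 to 249 in G3 (log2 -1.78 ± 0.27, edgeR adjusted p = 2.27e-05). Fat2, a protocadherin, was at 16.8 to 33.9 in A8 and 45.9 to 94.4 in G3 (log2 -1.61 ± 0.20, edgeR adjusted p = 1.13e-06). F10 and F6, and A8 and G3, thus differed in single members while their balance of the chromosome differed by less than a point, unlike the ES libraries of the SPOC clones.

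D9 against H1 depended on the cell type. The Dom share of the libraries labelled D9 was higher by 7.35 points in ES and differed by -0.0906 points in NPC. Over both, the difference was 3.63 points, with an SD of 4.29 between the differences of single days and not between replicates. The allele test over both called 132 members higher and 1 lower (3.31% of all genes tested). These values describe no single clone, since the ES and NPC libraries labelled D9 carry different patterns. Among ES libraries alone the allele test called 245 higher and 10 lower (11.1% of all genes tested, 7.02% for higher calls). Of these, 206 lay in the distal stretch, with a distal median of 1.13. Among NPC libraries alone it called 2 higher, Dock2 and Slit3, and 0 lower (0.684% of all genes tested), where 60 had an unadjusted p under 0.05.

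Of the members named for the fit over both cell types, Msl1, a subunit of the MSL acetyltransferase complex, was higher in D9 by 1.19 ± 0.22 (edgeR adjusted p = 1.13e-03), Map3k14 by 1.04 and Psmc5, a proteasome ATPase, by 1.00, while Srcin1 was lower (-0.78, edgeR adjusted p = 4.05e-02). In total level 1 member was called over both cell types, Map3k3 (-0.43 ± 0.10, edgeR adjusted p = 4.65e-02, 0.197% of all genes tested). ES libraries alone gave 196 higher and 230 lower (50.7% of members, 32.9% of all genes tested). Of these, 3 were higher and 189 lower in the distal stretch (median log2 change -0.44). The inner stretch had 12 higher and 8 lower, and the rest 181 higher and 33 lower (median 0.13). NPC libraries alone gave 131 and 135 (31.6% of members, 28.1% of all genes tested), with 44 higher and 40 lower distally. Each clone had 2 libraries per cell type, so the spread in these fits rested on few libraries.

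Whether the SPOC lines differed from their parent by the same amount in each background was tested as an interaction. The difference between DelPID_SPOC and DelPID minus that between SPOC and WT was above 0 in 32 called members and below 0 in 0 (2.04% of all genes tested, 0.352% for calls above 0). Of the 32, 30 lay in the distal stretch, where the SPOC NPC libraries were lower in Dom share than WT. With H1 alone on the SPOC side 13 were called. Cant1, a nucleotidase, had a difference of 1.3 ± 0.32 on the log2 scale (edgeR adjusted p = 2.05e-02), with Polg2 (a subunit of the mitochondrial DNA polymerase) at 1.22 ± 0.33 and Mrpl12 (a mitochondrial ribosomal protein) at 1.19 ± 0.28. For untreated PCGF35_SPOC and PCGF35, set against SPOC and WT in the same way, the median difference over the members was 0.28, and 0.79 in the distal stretch. In the DelPID background these were 0.23 and 0.72, with 207 members at an unadjusted p under 0.05. That number was 262 in the PCGF35 background. Here 1 member was called, Gpatch8, at 1.00 ± 0.19 (edgeR adjusted p = 4.01e-02, 0.0195% of all genes tested). With H1 alone on the SPOC side 0 were called.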

How the data were processed

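Chromatin-associated RNA was sequenced as stranded total RNA. The authors depleted rRNA reads with Bowtie2 2.3.2, aligned the others with STAR 2.4.2a to an N-masked mm10 genome, assigned fragments to alleles with SNPsplit and counted them per gene and strand with featureCounts. The deposited values are raw counts per gene of all, Cast and Dom fragments, with replicates not pooled. A deposited table of X-chromosome allelic ratios was not used.

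Analyses used R 4.3.3 (edgeR 4.0.16, limma 3.58.1, DESeq2 1.42.0) and Python 3.11.15 (numpy 2.4.6, pandas 2.3.3, scipy 1.17.1, matplotlib 3.10.9). Members needed 5 allelic fragments in every library. The allele test was edgeR's quasi-likelihood test on Dom and Cast counts of 10236 genes, with 58 library effects and an allele term for each of 28 groups. The total test used filterByExpr and TMM over 16227 genes. Adjusted p-values are Benjamini-Hochberg over all genes tested. The scripts were tested on simulated data for SPOC against WT, with 50 changed genes per size. The allele test recovered 62 and 82% of log2 changes of -1 and 1, and 8 and 18% of those of -0.5 and 0.5. The total test recovered 78 and 86%, and 26 and 24%. A member that was not called may therefore still differ by such an amount. Shares pool fragments over members, and levels are per fragments of the other autosomes.

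Members and lists were chosen with earlier results of these data known. Named members were those of the role lists and, per comparison, direction and measure, at most 3 of the largest called changes with a mean of at least 100 allelic fragments and no overlap within a day (for clones, 1 sign on every day). Other genes named beside counts of 5 or fewer, at the ends of the stretches or as exceptions were chosen after their values were seen, as were the stretches. The replicate number paired treated with untreated libraries (PCGF35_SPOC: same clone, deviations correlated at 0.864 to 0.945; PCGF35: 0.396 to 0.836). Replicate libraries of a group differed beyond counting noise in all 32 pairs. Alternatives covered the allele minimum, normalization, filter, test, replicate block and single libraries left out.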

Additional observations from a re-analysis of the deposited data

Results flagged for a closer look

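The difference that goes with the SPOC mutation was not the same in the DelPID and the WT background for 32 members (edgeR's quasi-likelihood test of the interaction, adjusted over all genes tested), with 30 of them in the distal stretch. With H1 alone on the SPOC side 13 members were called. The SPOC libraries on the WT side are H1 and the libraries labelled D9, which share the distal excess of Cast, and the part of clone and genotype cannot be told apart. Between the PCGF35 and the WT background 1 member was called, Gpatch8. The median difference over the members was 0.28 there and 0.23 for the DelPID background, and 0.79 and 0.72 in the distal stretch. The lower count of calls is thus not a smaller difference. No group held the 4 libraries needed to ask whether 1 library stood apart from the others of its group.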

How the results depend on the processing

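Of 476 alternative values, 304 of them with 1 library left out, 417 counted as the same, 35 were weaker, 17 stronger, 6 moved and 1 reversed. A count of called members counted as the same within a set fold of the reported count, so such counts could still change. A difference of shares was judged by its SD, which for comparisons of clones was the SD of the differences over matched sets. A change of sign counted as reversed only where the reported difference exceeded that SD. By sign alone 37 values of 9 results changed, 30 of them with 1 library left out, all but the reversed one from a difference smaller than its SD. The cause of a change was not tested. The reversed value was the Dom share of A8 minus G3, which was 0.520 points after subtraction of the other autosomes. The same subtraction gave -7.39 points for SPOC against WT (-4.79 by the gene median), -19.3 for DelPID against WT, 0.054 for PCGF35_SPOC against PCGF35 and -0.513 for F10 against F6, and the log2 level of SPOC against WT was -0.11 as a ratio of sums. Called members by allele were 98 for SPOC with H1 alone, which was tried after the data were seen. They were 19 with limma and 1 in a fit of the comparison alone for DelPID_SPOC against DelPID, and 5 with limma, 5 at a minimum of 20 and 18 alone for PCGF35_SPOC against PCGF35. For dTAG in PCGF35 they were 0 at a minimum of 20, 3 alone and 0 with the replicate block. With limma they were 28 for F10 against F6, 6 for A8 against G3 (12 with allele library sizes from the other autosomes) and 85 for D9 against H1 (255 in ES and 2 in NPC libraries alone, both tried after the data were seen). The interaction with the PCGF35 background gave 0 members with limma, 14 with those library sizes and 0 with H1 alone, and that with the DelPID background 13 with H1 alone, all tried after the data were seen. By total level SPOC against WT gave 80 members with DESeq2, 83 alone and 5 with H1 alone. PCGF35 against WT gave 208 alone and 261 with the replicate block, and DelPID against WT 80 and 59. DelPID_SPOC against DelPID gave 15 without a filter and 0 alone. For dTAG in PCGF35, DESeq2 gave 1, the fit alone 1 and the replicate block 8, and for dTAG in PCGF35_SPOC the replicate block gave 8. D9 against H1 gave 15 with DESeq2, 0 without a filter, 426 in ES and 266 in NPC libraries. WT shares only a replicate number with PCGF35 (deviations correlated at 0.324 and 0.132) and DelPID (-0.194 and -0.173), where the replicate block called 718 and 681 members by allele; the block changed no other call for dTAG in PCGF35_SPOC by allele (0).

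With single libraries left out, the Dom share difference was -7.13 to -6.30 points for SPOC against WT, 13.98 to 14.8 for PCGF35, -18.8 to -18.0 for DelPID, -0.856 to -0.309 for DelPID_SPOC against DelPID, -0.244 to -0.150 for PCGF35_SPOC against PCGF35, -0.077 to 0.097 for F10 against F6, -0.438 to -0.283 for A8 against G3 and 2.36 to 4.88 for D9 against H1. For dTAG it was 0.000221 to 0.0546 in PCGF35 and -0.0956 to 0.0924 in PCGF35_SPOC. Called members by allele were 117 to 161 for SPOC, 476 to 666 for DelPID and 2 to 10 for DelPID_SPOC against DelPID, and by total level 3 to 51, 119 to 166 and 6 to 63. Called members were not refitted without single libraries for the other comparisons. Members with few allelic fragments limit single-gene calls, and the shallowest libraries limit which genes are members.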
